A study of Homo sapiens with 12 samples.

Results

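Aminoacyl-tRNA synthetases are the enzymes that join each amino acid to its transfer RNA (tRNA). Human cells keep separate sets of them for the cytosol and for the mitochondria, and the genes of both sets lie in the nucleus. Genes of the mitochondrial set carry names that end in 2. The genes described here are 35 synthetase genes chosen by their current symbols and matched by Ensembl identifier to 35 of the 60483 gene rows of each library, namely 19 cytosolic and 16 mitochondrial ones. All 35 passed the filter on low counts.

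The libraries came from MCF10A, a non-tumorigenic, immortalised line of mammary epithelium from a human donor, which had been transduced so that doxycycline (Dox) switches on TAZ-4SA. The co-activator TAZ is restrained by the Hippo pathway through phosphorylation of serines, and TAZ-4SA is a form in which such serines are replaced. Every library, No Dox included, carried the construct, and the 12 libraries formed 4 groups of 3 (No Dox, or 24, 48 or 72 h in 0.05 µg/mL Dox). The Dox groups differed from No Dox in the drug as well as in TAZ-4SA, so the effects of these cannot be told apart. The same No Dox group served all 3 times, so any difference in time in culture cannot be told apart either. Whether the 3 replicates of a group were separate cultures is not stated, so the p-values rest on a spread between libraries that may be technical.

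Library totals ran from 15382564 to 26570132 counts, with 17873 to 19432 genes detected at 1 count or more. WWTR1, the gene of TAZ, was at 71.7 ± 2.88 CPM (counts scaled to library size, SD, n = 3) without Dox and at 887 ± 68.1, 844 ± 73.6 and 994 ± 59.3 at 24, 48 and 72 h. All 7 epithelial markers examined were at 1 CPM or more in every group, but keratins shifted. KRT17 was at 2370 ± 87.3 CPM without Dox and 518 ± 56.9, 529 ± 40.7 and 600 ± 42.4 at 24, 48 and 72 h, KRT8 at 211 ± 7.76 and then 885 ± 61, 1650 ± 81.6 and 2230 ± 118, and KRT18 at 368 ± 13.8 and then 809 ± 56.5, 1560 ± 78.5 and 1920 ± 137. The leukocyte gene CD3E and the fibroblast genes COL1A2, COL3A1 and PDGFRA were at 0 in every library. The summed level of the 3 endothelial markers was 6.26 to 6.73 CPM without Dox, all of it PECAM1, and 0 to 0.131 CPM in the Dox groups. The macrophage marker CD68 was at 7.5 ± 0.749 CPM without Dox, 5.49 ± 1.02 at 24 h, 2.47 ± 0.296 at 48 h and 4.73 ± 0.442 at 72 h. The 5 fibroblast markers summed to 3.73 to 5.42, 1.96 to 3.51, 1.78 to 2.79 and 2.02 to 3 CPM in the same order. The part of these shifts in the results below was not tested.

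Each cytosolic enzyme charges tRNA for the ribosomes that translate nuclear genes, and each mitochondrial enzyme is made in the cytosol, imported, and charges tRNA for the few proteins encoded by mitochondrial DNA. GARS1 and KARS1 each encode a cytosolic and a mitochondrial form, so their counts cover both. EPRS1 joins 2 activities, for glutamate and proline, in 1 protein, and FARSA and FARSB are the subunits of the cytosolic phenylalanine enzyme. Some cytosolic enzymes (EPRS1, IARS1, KARS1, LARS1, MARS1, QARS1 and RARS1 among these genes) are held in a multi-synthetase complex on the scaffold proteins AIMP1, AIMP2 and EEF1E1. Per length of transcript, the cytosolic genes ranged from 22.1 to 253 TPM (deposited, length-scaled expression) without Dox, with a median of 89.2, from FARSB to QARS1. The mitochondrial genes ranged from 4.29 TPM for PARS2 to 182 TPM for IARS2, with a median of 20.5.

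The first question was how each set stood against No Dox at each time. Most cytosolic synthetase genes were higher in Dox, most at 48 h, while the mitochondrial genes moved by less and in both directions. A gene passed where its adjusted p (Benjamini-Hochberg, edgeR quasi-likelihood test across 14822 genes) was under 0.05, and was called where it also changed at least 2-fold. The 3 comparisons with No Dox share the same 3 No Dox libraries, so each is given by its own values.

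At 24 h, 17 of 19 cytosolic genes were higher, where 37.1% of all genes tested passed as higher, 1 (QARS1) was lower, where 38.1% of all genes did, and SARS1 did not pass. FARSA and MARS1 were called higher, where 12% of all genes were, and none was called lower, where 17.7% of all genes were. The median log2 fold change of the cytosolic genes was 0.6, against -0.03 over all genes. Of the 16 mitochondrial genes, 9 were higher and 2 (IARS2 and WARS2) lower, none was called, and their median was 0.3.

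At 48 h, 18 of 19 cytosolic genes were higher, where 36% of all genes were, and QARS1 was lower, where 35.8% were. The 8 called higher, where 10.6% of all genes were, were MARS1, AARS1, GARS1, WARS1, CARS1, YARS1, EPRS1 and TARS1, and none was called lower, where 14.4% of all genes were. The cytosolic median reached 0.94, above the upper quartile of all genes (0.49), whose median was -0.01. Among the mitochondrial genes 8 were higher, 3 (WARS2, CARS2 and MARS2) were lower and 5 did not pass, with no call and a median of 0.16.

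At 72 h, again 18 cytosolic genes were higher and QARS1 lower, where 34.3% and 34.8% of all genes passed. WARS1, AARS1 and MARS1 were called higher, where 10.2% of all genes were, and none lower, where 12.3% were. The cytosolic median was 0.61, against -0.02 over all genes. The mitochondrial median was 0.01, with 6 genes higher, 2 (CARS2 and MARS2) lower, 8 that did not pass and no call. In bulk RNA, a change in the share of cells that express a gene and a change in RNA per cell cannot be told apart.

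**Figure D1:**
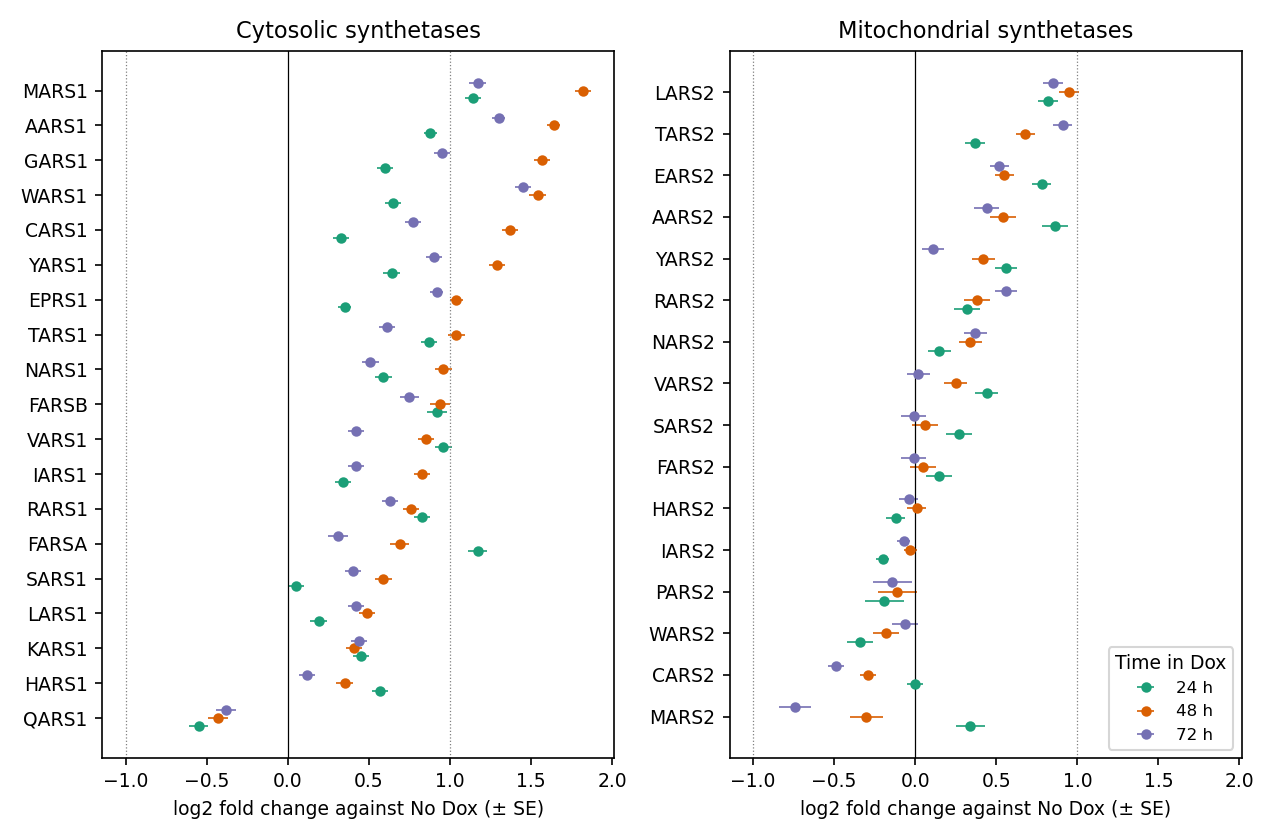
log2 fold change against No Dox (x axis, ± SE from the edgeR fit) for the 19 cytosolic (left) and 16 mitochondrial (right) synthetase genes, ordered by the change at 48 h, with 1 point per time in Dox and dotted lines at a 2-fold change. On the left all genes but QARS1 lie at or right of 0, up to 1.82 for MARS1 at 48 h, while on the right values run from -0.74 (MARS2, 72 h) to 0.95 (LARS2, 48 h).

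MARS1, which charges methionine tRNA and so serves both initiation and elongation, had the largest change of the set at 48 h. It was at 98.1, 90.2 and 95.2 CPM in the No Dox libraries, 211, 209 and 207 at 24 h, 325, 340 and 334 at 48 h and 217, 212 and 212 at 72 h. The groups with Dox lay wholly above No Dox, and the 48 h libraries wholly above the others. The log2 fold changes were 1.14 ± 0.05, 1.82 ± 0.05 and 1.17 ± 0.05 (SE, adjusted p = 3.21e-15, 1.7e-18 and 2.68e-15). MARS1 lies at 57475445 to 57517569 on chromosome 12 (plus strand, GRCh38, positions from GENCODE version 44), and 12.4% of its exon bases overlap genes on the opposite strand, among them ARHGAP9 and DDIT3. The part of this overlap in the MARS1 counts was not tested.

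AARS1, the alanine enzyme (chromosome 16, 70251983 to 70289707, minus strand), was at 114, 108 and 112 CPM without Dox and 210, 200 and 205 at 24 h. It was at 352, 351 and 343 CPM at 48 h and 270, 276 and 278 at 72 h. Its 4 groups did not overlap, and the 48 h group was highest. The log2 fold changes were 0.88, 1.64 and 1.3 (SE 0.04 each), of which the values at 48 and 72 h were calls.

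WARS1, the tryptophan enzyme, which interferon is also known to induce, lies at 100333790 to 100376805 on chromosome 14 (minus strand). It was at 67.5, 63.9 and 66.1 CPM without Dox, 108, 97.2 and 105 at 24 h, 192, 194 and 189 at 48 h and 179, 181 and 179 at 72 h. Unlike most of the set it stayed near its 48 h level, with a change from 48 to 72 h of -0.09 ± 0.05 (adjusted p = 0.133). Its log2 fold change against No Dox at 72 h was 1.45 ± 0.05. Of its exon bases, 10.6% overlap genes on the opposite strand, and the strand setting used for counting is not given in the sources used here.

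GARS1, the glycine enzyme (chromosome 7, 30580533 to 30634033, plus strand), was at 134, 125 and 136 CPM without Dox and 212, 191 and 198 at 24 h. It stood at 403, 383 and 389 CPM at 48 h and 246, 259 and 257 at 72 h. No 2 groups overlapped. It was called at 48 h alone, at a log2 fold change of 1.57 ± 0.05.

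CARS1, the cysteine enzyme (chromosome 11, 3000922 to 3057613, minus strand), was little raised at 24 h. Its libraries were at 63.1, 60.5 and 66.2 CPM without Dox, 83.1, 76.3 and 79.6 at 24 h, 164, 165 and 161 at 48 h and 105, 108 and 111 at 72 h. The 3 log2 fold changes were 0.33, 1.37 and 0.77 (SE 0.05 each). The step from 24 to 48 h was 1.04 ± 0.05 (adjusted p = 1.95e-12), a call that was lost with effective lengths in DESeq2 (0.98) and in the test of the 2-fold threshold itself (glmTreat, adjusted p = 1).

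YARS1, the tyrosine enzyme (chromosome 1, 32775237 to 32818031, minus strand), was at 126, 120 and 130 CPM without Dox, 209, 188 and 193 at 24 h, 318, 302 and 301 at 48 h and 224, 240 and 238 at 72 h. Its log2 fold change at 48 h was 1.29 ± 0.05. TARS1, the threonine enzyme (chromosome 5, 33440696 to 33468091, plus strand), was already high at 24 h. It was at 184, 183 and 190 CPM without Dox, 338, 349 and 334 at 24 h, 382, 394 and 367 at 48 h and 260, 294 and 296 at 72 h, with log2 fold changes of 0.87, 1.04 and 0.61 (SE 0.05 each).

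EPRS1 (chromosome 1, 219968600 to 220046530, minus strand) was at 449, 441 and 461 CPM without Dox, 561, 593 and 567 at 24 h, 895, 943 and 931 at 48 h and 834, 882 and 849 at 72 h. It rose late and stayed up, with log2 fold changes of 0.35, 1.04 and 0.92 (SE 0.04 each). The calls of TARS1 and EPRS1 at 48 h lay just past the 2-fold threshold. With upper-quartile scaling both were at 0.98 and not called, and the test of the threshold itself (glmTreat) gave adjusted p = 0.438 for TARS1 and 0.368 for EPRS1.

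FARSA (chromosome 19, 12922479 to 12934037, minus strand) had another course, with its peak at 24 h. Its libraries were at 65.8, 64.5 and 64.6 CPM without Dox, 151, 144 and 144 at 24 h, 111, 101 and 101 at 48 h and 74.2, 81.4 and 86.6 at 72 h. The log2 fold changes were 1.17 ± 0.06, 0.69 ± 0.06 and 0.31 ± 0.06. FARSB, the other subunit of the same enzyme, stayed up, at 0.92, 0.94 and 0.75 (SE 0.06 each), from 57.5 ± 1.88 CPM without Dox to 110 ± 1.95 at 48 h.

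**Figure D2:**
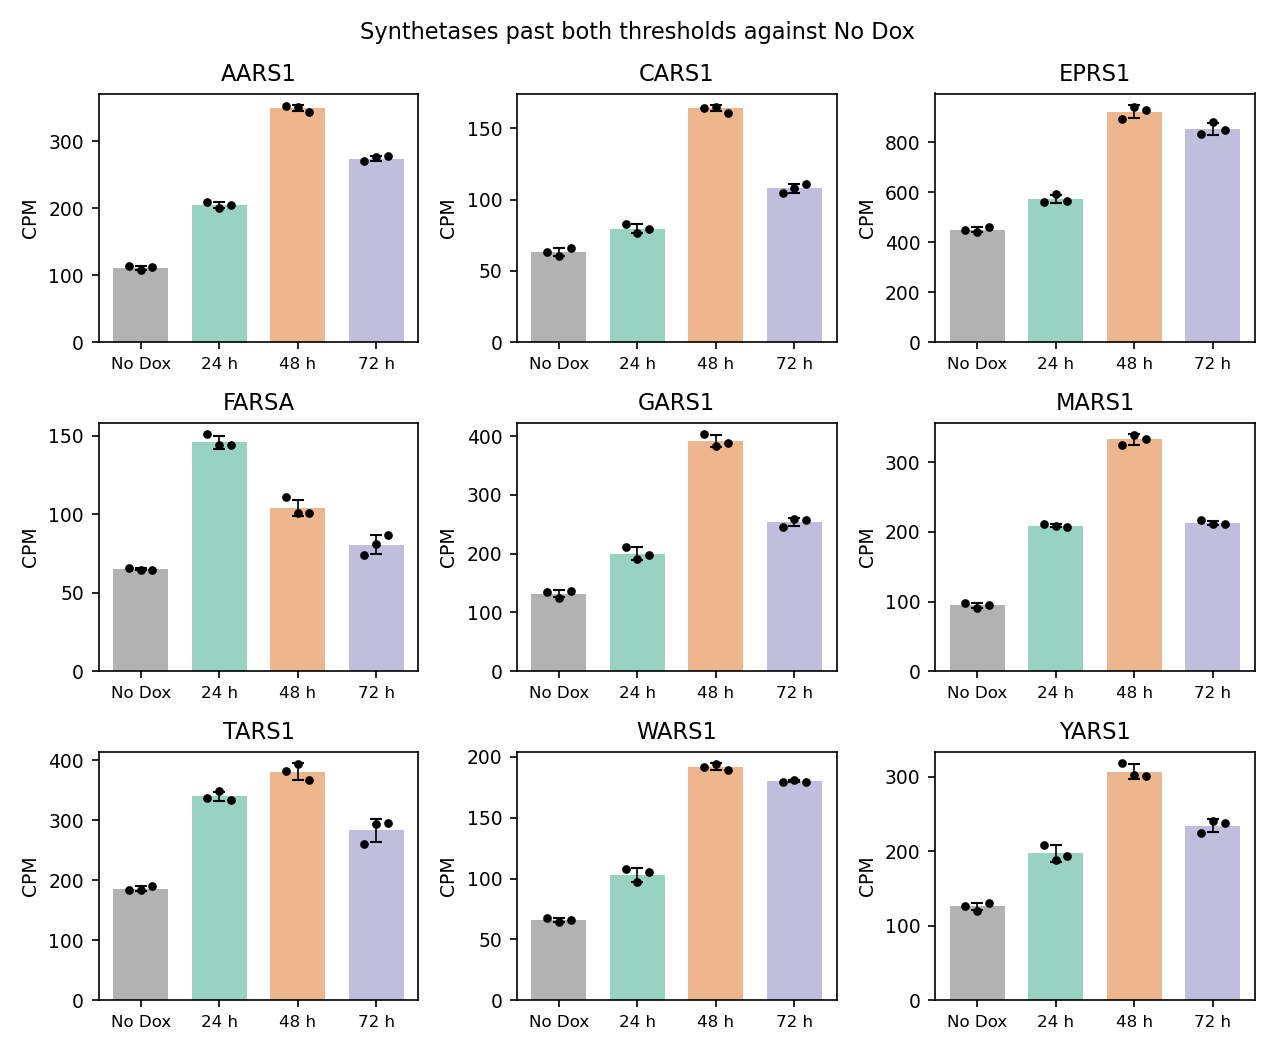
CPM (y axis, from 0) in each library (points), with the group mean (bar) and SD (error bar, n = 3), of the 9 synthetase genes called at any time against No Dox. The highest group is 48 h in 8 panels and 24 h in that of FARSA.

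The other cytosolic genes changed by less than 2-fold. VARS1, for valine, and RARS1, for arginine, were near their highest at 24 h, with log2 fold changes of 0.96, 0.85 and 0.42 for VARS1 and 0.83, 0.76 and 0.63 for RARS1. NARS1, for asparagine, and IARS1, for isoleucine, were highest at 48 h, at 0.59, 0.96 and 0.51 and at 0.34, 0.83 and 0.42. HARS1, for histidine, went down from 0.57 at 24 h to 0.35 and 0.12. LARS1, for leucine, was at 0.19, 0.49 and 0.42, and SARS1, for serine, at 0.05, 0.59 and 0.4, of which the value at 24 h did not pass (adjusted p = 0.405).

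KARS1, the lysine enzyme, had the smallest largest change of the cytosolic set. It was at 212, 201 and 209 CPM without Dox, 288, 279 and 285 at 24 h, 286, 275 and 267 at 48 h and 270, 276 and 298 at 72 h. All 9 Dox libraries lay above No Dox, at log2 fold changes of 0.45, 0.41 and 0.44 (SE 0.05 each), and the Dox groups overlapped between 24 and 48 h and between 48 and 72 h.

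QARS1, the glutamine enzyme, went the other way. Its libraries were at 209, 206 and 214 CPM without Dox, 151, 133 and 147 at 24 h, 160, 157 and 148 at 48 h and 163, 151 and 169 at 72 h. No Dox library reached down to any Dox library. The log2 fold changes were -0.55 ± 0.06, -0.43 ± 0.06 and -0.38 ± 0.06 (adjusted p = 1.41e-08, 4.93e-07 and 3.79e-06). QARS1 had the highest level per length of the cytosolic genes without Dox, at 253 ± 8.04 TPM, and was at 181 ± 7.46, 202 ± 0.807 and 218 ± 7.77 TPM in Dox.

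Of the 7 genes of the multi-synthetase complex, 6 were higher and QARS1 lower at 24, 48 and 72 h, where 37.1%, 36% and 34.3% of all genes were higher. Their medians were 0.35, 0.76 and 0.44, while the 12 cytosolic genes outside it had medians of 0.65, 1 and 0.68, a difference that was not tested. The 3 scaffold genes were higher at each time. AIMP2 was at 30.8 ± 1.95 CPM without Dox and 75.5 ± 4.3, 63.6 ± 5.07 and 42.7 ± 4.66 in Dox, at log2 fold changes of 1.29, 1.04 and 0.47, the first 2 of them calls. AIMP1 was at 0.67, 0.48 and 0.49 and EEF1E1 at 0.67, 0.58 and 0.23. By catalytic fold, 15 of 19 class I genes of both sets were higher at 24 h, 14 at 48 h and 12 at 72 h, and 11, 12 and 12 of 16 class II genes, again against 37.1%, 36% and 34.3% of all genes. In class I, 3, 4 and 3 genes were lower, and in class II none was, where 38.1%, 35.8% and 34.8% of all genes were. EPRS1, which joins 2 activities, was counted in class I alone.

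The step from 24 to 48 h raised most of the cytosolic set again. There, 12 genes were higher, where 18.3% of all genes were, and 2 lower (FARSA and HARS1), where 18.3% of all genes were too. CARS1 alone was called higher, where 3.08% of all genes were, and none was called lower, where 1.44% were. The median was 0.37 over the cytosolic genes and 0 over all genes. GARS1 came next at 0.97 ± 0.05, with WARS1 at 0.89 ± 0.05, and without replicate 1 of the 24 h group GARS1 was called too, at 1.01. Of the mitochondrial genes, 3 were higher and 6 lower in this step, with a median of -0.02 and no call.

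From 48 to 72 h the cytosolic set went down. None of its genes was higher, where 18.6% of all genes were, and 15 were lower, where 20.1% were. None passed the 2-fold threshold, where 2.3% of all genes were called higher and 0.938% lower. The largest falls were of MARS1 at -0.64 ± 0.04, GARS1 at -0.63 ± 0.05 and CARS1 at -0.6 ± 0.05, and the median was -0.34. LARS1, KARS1, QARS1 and WARS1 did not pass. In the mitochondrial set 4 genes were lower and 1, TARS2, higher, with a median of -0.05.

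As most cytosolic genes were up at 48 h and down from there to 72 h, their promoters were searched for the letters TGATGCAA, a form of the composite C/EBP-ATF element that the stress factor ATF4 is known to bind. This search was chosen after the fold changes were seen. RefSeq windows (GRCh38.p14, 250 bases before to 50 after a gene's start) were at hand for 30 of the 35 genes, 16 cytosolic and 14 mitochondrial. On either strand the letters were in 6 of 16 cytosolic windows (37.5%), in 0 of 14 mitochondrial windows and in 295 of 27305 genes (1.08%). The 30 bases around each match are printed 5′ to 3′ on the strand of the gene, with the match in capitals (TTGCATCA is the same element on the other strand), since they are what these 6 genes share.
AARS1, chr16:70289675-70289704, minus strand: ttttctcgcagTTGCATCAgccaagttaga
CARS1, chr11:3057407-3057436, minus strand: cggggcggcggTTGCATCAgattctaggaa
IARS1, chr9:92293692-92293721, minus strand: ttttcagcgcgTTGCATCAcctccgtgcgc
MARS1, chr12:57488053-57488082, plus strand: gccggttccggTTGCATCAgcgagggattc
NARS1, chr18:57621804-57621833, minus strand: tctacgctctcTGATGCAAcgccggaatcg
TARS1, chr5:33440956-33440985, plus strand: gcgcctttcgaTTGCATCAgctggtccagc

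In MARS1, CARS1, IARS1, TARS1 and NARS1 the match lay within 22 bases of the RefSeq start, and in AARS1 it ended 180 bases before it. The RefSeq starts of MARS1 and GARS1 lie well inside the bounds given above, which are those of all GENCODE transcripts of each gene. The looser form TGATGNAA, which contains the first one, was in 7 of 16 cytosolic windows, adding GARS1, in 1 of 14 mitochondrial windows (YARS2) and in 4.46% of genes. The GARS1 match, at chr7:30594834-30594863 on the plus strand, reads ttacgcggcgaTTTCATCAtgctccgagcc. At 48 h against 24 h the 6 genes with TGATGCAA had log2 fold changes of 0.16 to 1.04 and a median of 0.58, and the 10 without it -0.48 to 0.97 and a median of 0.06. From 48 to 72 h the 6 were at -0.64 to -0.34 with a median of -0.44, and the 10 at -0.63 to 0.06 with a median of -0.16. Against No Dox, the medians of the 6 and the 10 were 0.73 and 0.58 at 24 h, 1.2 and 0.72 at 48 h and 0.69 and 0.54 at 72 h. These same fold changes prompted the search, so the medians are a description and no test. A match of letters does not show binding, and the part of ATF4 was not tested.

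ATF4 is known for its part in the response to amino acid shortage. Of 15 genes of that response, 6 were higher and 3 lower at 24 h, 13 higher and 2 lower at 48 h and 10 higher and 2 lower at 72 h. The share higher at 24 h was near that of all genes (37.1%), while at 48 and 72 h the shares of all genes were 36% and 34.3%. In the step from 24 to 48 h, 14 were higher, where 18.3% of all genes were, and 9 of them were called, where 3.08% were. ATF4 itself, named after its values were seen, was at 400 ± 6.88 CPM without Dox, 400 ± 16.9 at 24 h, 663 ± 35.3 at 48 h and 488 ± 31.2 at 72 h. CHAC1, a glutathione-degrading enzyme, was at 0.539 ± 0.141, 2.71 ± 0.811, 19.9 ± 1.42 and 4.38 ± 0.635 CPM, with its peak at 48 h like MARS1. PHGDH and PSAT1, of serine synthesis, reached log2 fold changes of 3.41 and 3.23 at 48 h, and ASNS, which makes asparagine, stepped up by 2.17 from 24 to 48 h. CEBPB was called lower at 24 h at -1.58, and SESN2 changed by -1.13 from 48 to 72 h. NUPR1 stepped up by 2 from 24 to 48 h, but from a level below No Dox. It was at 46.2 ± 0.669 CPM without Dox and 17.2 ± 1.24, 68.4 ± 4.8 and 52.9 ± 3.67 in Dox.

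Amino acid transporters, which supply the substrates of these enzymes, were mixed. Of 14 genes, 7 were higher and 6 lower at 24 h, 9 and 2 at 48 h and 7 and 5 at 72 h. Over all genes 37.1% were higher and 38.1% lower at 24 h, 36% and 35.8% at 48 h and 34.3% and 34.8% at 72 h, so the lower counts at 24 and 72 h were near the background. At 48 h 6 were called higher and 1 lower, where 10.6% and 14.4% of all genes were. From 24 to 48 h 9 were higher and 2 lower, where 18.3% of all genes were each, and 4 were called higher, where 3.08% were. From 48 to 72 h 11 were lower, where 20.1% of all genes were, and none was higher. SLC1A4, which carries alanine and serine, was at log2 fold changes of 1.91, 4.13 and 3.21, and SLC43A1, a carrier of large neutral amino acids, at 1.95 at 48 h and 1.78 at 72 h. SLC7A8, also for neutral amino acids, was at -3.03, -2.59 and -2.12, from 2.27 ± 0.148 CPM without Dox to under 1 CPM in each Dox group. SLC6A9, for glycine, was at -1.27 at 24 h, stepped up by 2.25 to 48 h and changed by -1.2 from 48 to 72 h. For the genes known to be induced by interferon beside WARS1, 7 of 9 were tested, and 3 were higher and 4 lower at 24 h, and 3 higher and 3 lower at 48 and at 72 h, against the same shares of all genes. GBP2 was at -4.04, -4.53 and -4.3, IRF1 at -1.13 at 24 h, GBP1 at 1.1 at 24 h and PSMB9 at 1.08 at 48 h and 1.25 at 72 h.

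Charged tRNA is handed to the ribosome by elongation factors, and most of these genes were lower in Dox. Of the 5 measured, 4 were lower at 24 h, 4 at 48 h, where the other one was higher, and 5 at 72 h, where 38.1%, 35.8% and 34.8% of all genes were lower, and none was called. EEF1A1, which carries the charged tRNA, was at 20500 ± 374 CPM without Dox and 10400 ± 58.3, 12700 ± 420 and 16400 ± 877 in Dox, at log2 fold changes of -0.97, -0.69 and -0.32. EEF2, the translocase, was at -0.88, -0.77 and -0.61. EEF1D, named after its values were seen, was lower at 72 h alone, at 506 ± 20.4 CPM against 558 ± 13 without Dox. Per length it was not lower, at 1090 ± 51.8 TPM at 72 h and 1030 ± 8.78 without Dox. Of 23 genes that mature, modify and export tRNA, 19 were higher and 1 lower at 24 h, 16 and 2 at 48 h and 6 and 4 at 72 h. Of all genes 37.1%, 36% and 34.3% were higher, so the count at 72 h was below the background. TSEN15, a subunit of the tRNA splicing endonuclease, was at 1.4, 1.86 and 1.7, RPP30, of RNase P, at 1.38 at 24 h and 1.19 at 48 h, and METTL1, which methylates tRNA, at 1.24 at 24 h. Of 4 genes related to editing of mischarged tRNA, 2, 3 and 2 were higher at the 3 times, against the same shares of all genes, and 1 was lower at 72 h. DTD1, a deacylase, was at 0.65, 0.71 and 0.76, and AARSD1, an alanine editing factor, at 0.7, 0.67 and 0.51.

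The mitochondrial set held genes with separate courses. LARS2, the leucine enzyme (chromosome 3, 45388561 to 45554726, plus strand), came nearest to the 2-fold threshold. It was at 40.9, 37.3 and 37.1 CPM without Dox, 69.8, 63.7 and 70.2 at 24 h, 69.2, 75.8 and 77.4 at 48 h and 66.9, 69.3 and 71.8 at 72 h. All Dox libraries lay above No Dox and the Dox groups overlapped in each step, at log2 fold changes of 0.82, 0.95 and 0.85 (SE 0.06 each).

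TARS2, the threonine enzyme (chromosome 1, 150487414 to 150507602, plus strand), rose at each time. Its libraries were at 47.2, 47 and 42.6 CPM without Dox, 60.5, 56.6 and 59.4 at 24 h, 74.3, 74.3 and 71.1 at 48 h and 83.6, 87.7 and 85 at 72 h. The 4 groups did not overlap, and the steps from 24 to 48 h and from 48 to 72 h were 0.32 ± 0.06 and 0.22 ± 0.05 (adjusted p = 0.000136 and 0.00305). In the step to 72 h it was the only gene of either set that passed as higher.

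EARS2, the glutamate enzyme (chromosome 16, 23520754 to 23557731, minus strand), and AARS2, the alanine enzyme (chromosome 6, 44298731 to 44313347, minus strand), were highest at 24 h. EARS2 was at 41.6, 42.1 and 39.7 CPM without Dox, 70.6, 68.6 and 72.7 at 24 h, 62.1, 60.3 and 58 at 48 h and 56.8, 60.7 and 59.5 at 72 h. AARS2 was at 15.9, 15.7 and 16.7 CPM without Dox, 31.2, 26.6 and 29.6 at 24 h, 22.6, 22.7 and 25.2 at 48 h and 22, 21 and 22.4 at 72 h. The log2 fold changes were 0.78, 0.55 and 0.52 for EARS2 and 0.86, 0.54 and 0.44 for AARS2, with no Dox library within the No Dox range. With effective transcript lengths in a DESeq2 fit, EARS2 at 24 h was at 1.08 and past both thresholds.

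MARS2 and CARS2 ended below No Dox. MARS2, the methionine enzyme (chromosome 2, 197705369 to 197708395, plus strand), was at 26.8, 23.1 and 22.1 CPM without Dox, 27.9, 33.7 and 29.5 at 24 h, 17, 21 and 20.6 at 48 h and 14.1, 14.8 and 14.3 at 72 h. It was thus higher at 24 h, at 0.34 ± 0.09, and lower at 48 and 72 h, at -0.3 ± 0.1 and -0.74 ± 0.1 (adjusted p = 0.00253, 0.00864 and 1.09e-06). CARS2, the cysteine enzyme (chromosome 13, 110641412 to 110713603, minus strand), was at 93.1, 99.4 and 95.8 CPM without Dox, 98.8, 91.7 and 96.7 at 24 h, 78.8, 76.8 and 80.3 at 48 h and 69.6, 66.7 and 68.2 at 72 h. It did not pass at 24 h (adjusted p = 0.939) and was at -0.29 ± 0.05 and -0.49 ± 0.05 later.

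**Figure D3:**
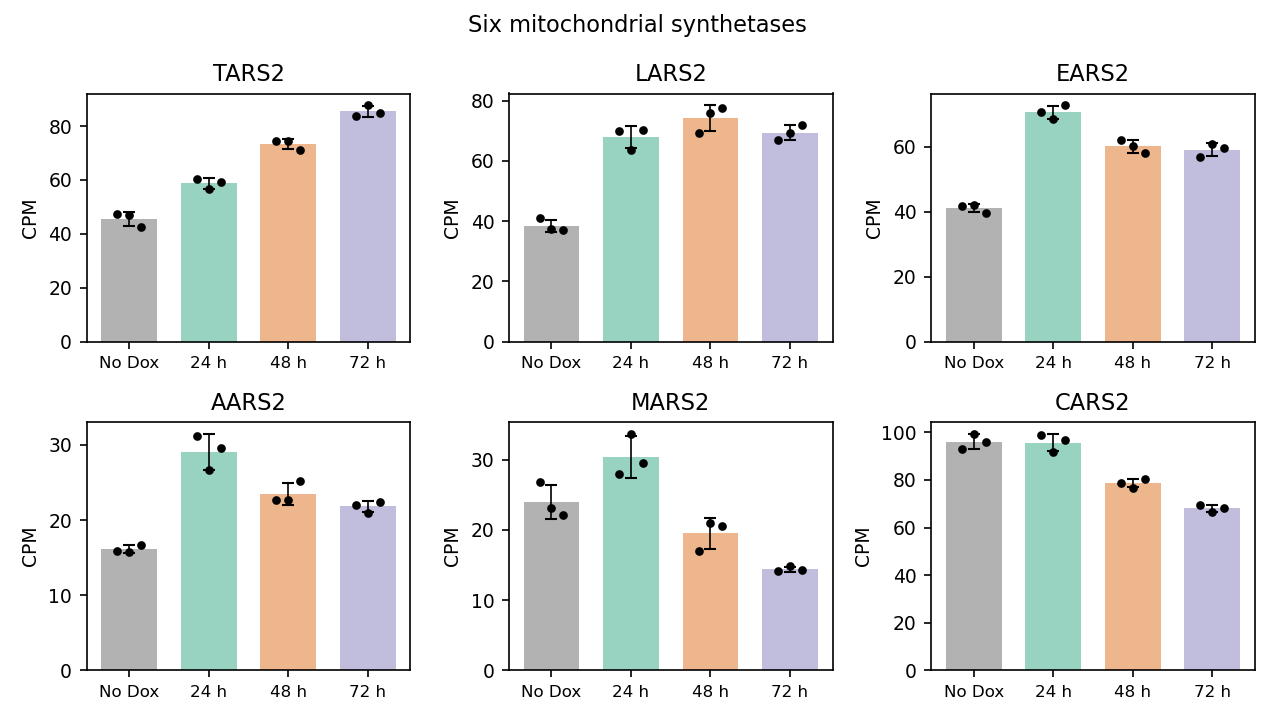
CPM (y axis, from 0) in each library (points), with the group mean (bar) and SD (error bar, n = 3), of 6 mitochondrial synthetase genes. TARS2 has its highest mean at 72 h, at 85.5 CPM, the LARS2 means lie between 67.9 and 74.1 CPM in Dox, EARS2 and AARS2 are highest at 24 h, and MARS2 and CARS2 are lowest at 72 h.

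The other mitochondrial genes moved less. RARS2, for arginine, was at 0.32, 0.38 and 0.56 and NARS2, for asparagine, at 0.15, 0.34 and 0.37, of which the value at 24 h did not pass (adjusted p = 0.051). YARS2, for tyrosine, was at 0.56, 0.42 and 0.11, VARS2, for valine, at 0.44, 0.25 and 0.02, and SARS2, for serine, at 0.27, 0.06 and -0.01. The values of YARS2 and VARS2 at 72 h and of SARS2 at 48 and 72 h did not pass. Genes on the opposite strand cover 18.1% of the exon bases of YARS2, and 8.5% of those of HARS1. Genes on the same strand cover 63% of the exon bases of VARS2 and 48.2% of those of SARS2. These overlaps are from GENCODE version 44, while the counts were made with version 22. In those counts the SD from shared reads reached 0.836% for VARS2 and 1.104% for SARS2. Whether version 22 holds the overlapping genes was not checked. WARS2, for tryptophan, was at -0.34, -0.18 and -0.06 and IARS2, for isoleucine, at -0.2, -0.03 and -0.07. For WARS2 the value at 72 h and for IARS2 those at 48 and 72 h did not pass.

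HARS2, FARS2 and PARS2, for histidine, phenylalanine and proline, passed at no time. HARS2 had the smallest largest change of the set and was at 64.5, 64.2 and 65.9 CPM without Dox, 59.6, 60.4 and 58.4 at 24 h, 70.7, 63 and 62.6 at 48 h and 64.6, 58.1 and 65.8 at 72 h. For HARS2 the log2 fold changes were -0.12 ± 0.06, 0.01 ± 0.06 and -0.04 ± 0.06 (adjusted p = 0.0715, 0.842 and 0.55). HARS1 and HARS2 are neighbours on chromosome 5 that are read in opposite directions, with 84 bases between their RefSeq starts (140691370 and 140691455). HARS1 was at 0.57 ± 0.05 at 24 h, from 136 ± 1.26 to 201 ± 6.21 CPM.

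The 13 other genes of mitochondrial translation on the list included no call. Of the makers of special tRNA charges, MTFMT, which formylates the initiator methionine, was at -0.01, -0.14 and -0.09, and the amidotransferase genes that turn glutamate on glutamine tRNA into glutamine were at -0.14, -0.22 and -0.2 for QRSL1, -0.14, 0.05 and 0 for GATB and -0.17, -0.4 and -0.28 for GATC. Of these 4 genes, QRSL1 passed at 48 and 72 h and GATC at all 3 times. The elongation factors were at 0.09, 0.03 and 0.07 for TUFM, which did not pass, 0.43, 0.46 and 0.08 for TSFM and 0.72, 0.5 and 0.24 for GFM1. The recycling factors GFM2 and MRRF were at 0.65, 0.64 and 0.98 and at -0.35, -0.19 and -0.22, and passed at each time. The initiation factor MTIF2 was at 0.09, 0.31 and 0.4, and MTIF3, at -0.02, -0.06 and 0.12, did not pass. The release factors MTRF1 and MTRF1L were at -0.84, -0.69 and -0.82 and at -0.09, -0.22 and -0.4. In this list 3, 4 and 3 genes were higher and 3, 5 and 5 lower at 24, 48 and 72 h. Over all genes 37.1%, 36% and 34.3% were higher and 38.1%, 35.8% and 34.8% lower, so these counts were near or below the background.

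The second question was whether the cytosolic and the mitochondrial sets differed in their change. The 19 cytosolic genes together took 3010 ± 45.2 CPM in the No Dox group, 4320 ± 37.8 at 24 h, 5720 ± 45.6 at 48 h and 4690 ± 116 at 72 h. The 16 mitochondrial genes summed to 1040 ± 13.6, 1110 ± 2.58, 1130 ± 13.3 and 1090 ± 14.3 CPM. Per length, the cytosolic sum over the mitochondrial sum, in TPM, was 3.14 ± 0.0467 without Dox and 3.85 ± 0.0556, 5.15 ± 0.0696 and 4.47 ± 0.249 in Dox. No library of 1 group lay within the range of another. In CPM the ratio was 2.89, 3.91, 5.04 and 4.28, and without WARS1 it was 2.83, 3.81, 4.87 and 4.12.

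**Figure D4:**
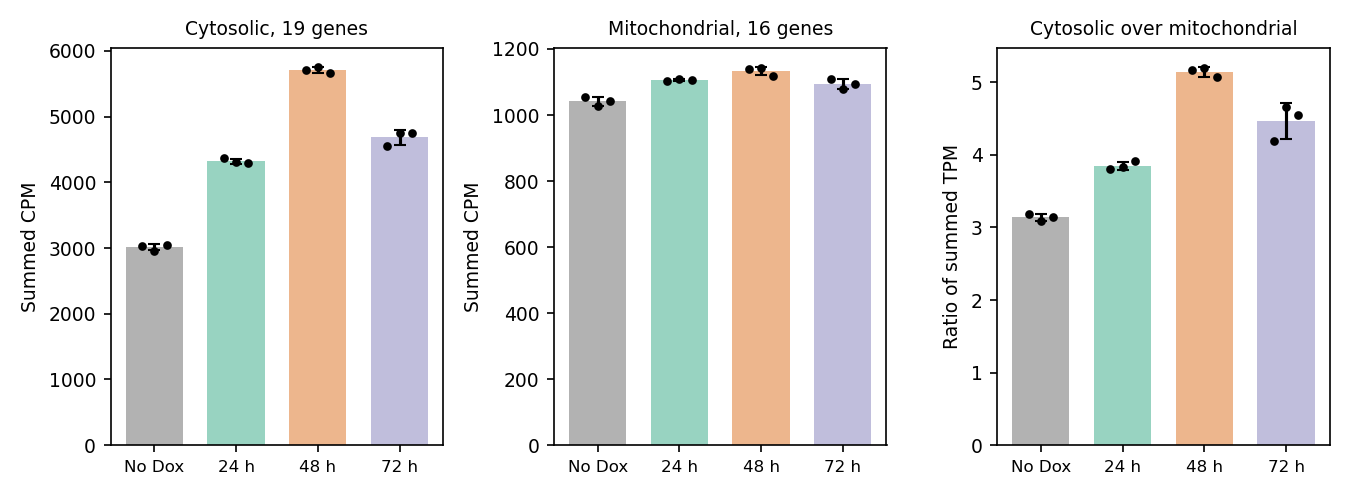
Summed CPM of the cytosolic (left) and mitochondrial (middle) synthetase genes, and the ratio of their summed TPM (right), in each library (points), with the group mean (bar) and SD (error bar, n = 3), all axes from 0. The cytosolic sum and the ratio peak at 48 h, at 5720 CPM and 5.15, while the group means of the mitochondrial sum lie between 1040 and 1130 CPM.

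For each amino acid with both a cytosolic and a mitochondrial gene, the log2 ratio of their counts was compared between the 3 No Dox and the 9 Dox libraries with an exact permutation test (two-sided, 220 arrangements, smallest possible p = 0.00455). There were 17 such pairs, in which EPRS1 and FARS2 each stand in more than 1 pair, so the pairs are not independent, and the p-values are unadjusted. The ratio was higher in Dox in 11 pairs and lower in 1 at p under 0.05. In 9 pairs all Dox libraries lay above all No Dox libraries, and in 1 pair all lay below. How often pairs of other genes would do so was not computed, so these counts have no background beside them. Among single genes, 36% of all were higher at 48 h than without Dox and 35.8% lower by the edgeR test. That is another measure at 1 time, and no background for the pairs.

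The shift was largest for methionine, where the log2 ratio of MARS1 to MARS2 was 1.98 ± 0.12 without Dox and 2.79 ± 0.14, 4.1 ± 0.14 and 3.89 ± 0.05 in Dox. The mean of the Dox libraries was 1.61 higher, at the smallest possible p of 0.00455 in the exact permutation test. The ratio of WARS1 to WARS2 went from 1.26 ± 0.07 to 2.24 ± 0.12, 2.98 ± 0.09 and 2.76 ± 0.05, 1.4 higher (exact permutation p = 0.00455). That of CARS1 to CARS2 went from -0.6 ± 0.1 to -0.27 ± 0.02, 1.06 ± 0.05 and 0.67 ± 0.06, 1.09 higher (exact permutation p = 0.00909).

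Of the pairs that share a gene, EPRS1 to PARS2 was 0.92 higher, FARSB to FARS2 0.81 and FARSA to FARS2 0.66 (exact permutation p = 0.00455, 0.00455 and 0.00909). IARS1 to IARS2 was 0.63 higher and VARS1 to VARS2 0.51 (exact permutation p = 0.00455 each). For histidine and asparagine the ratio was 0.4 higher in each, and for tyrosine 0.59 (exact permutation p = 0.0136, 0.0182 and 0.0409). In some runs that left 1 library out, these last 3 did not pass. There p ran from 0.0121 to 0.0727 for histidine, 0.00606 to 0.0727 for asparagine and 0.0121 to 0.109 for tyrosine (exact permutation tests). Such runs also have fewer arrangements, so their p-values are coarser. The differences stayed at 0.35 to 0.44 for histidine, 0.35 to 0.46 for asparagine and 0.53 to 0.66 for tyrosine. From TPM, the exact permutation p was 0.532 for asparagine, 0.159 for tyrosine and 0.05 for valine.

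The leucine pair went the other way. The ratio of LARS1 to LARS2 was 2.63 ± 0.05 without Dox and 1.99 ± 0.14, 2.18 ± 0.06 and 2.2 ± 0.05 in Dox, a mean difference of -0.51 (exact permutation p = 0.00455). In 5 pairs the difference did not pass. It was 0.66 for alanine (p = 0.0591), 0.32 for arginine (p = 0.05), 0.24 for serine (p = 0.245), 0.18 for threonine (p = 0.427) and 0.15 for EPRS1 to EARS2 (p = 0.577), all by the exact permutation test. The alanine ratio was 2.79 ± 0.05 without Dox and 2.82 ± 0.08 at 24 h, where AARS1 and AARS2 were both higher, and 3.89 ± 0.11 and 3.66 ± 0.05 later. The threonine ratio was 2.03 ± 0.11 without Dox and 2.53 ± 0.08, 2.38 ± 0.03 and 1.73 ± 0.08 in Dox. EPRS1 to EARS2 stood at 3.45 ± 0.08 without Dox, 3.02 ± 0.08 at 24 h and 3.94 ± 0.08 and 3.86 ± 0.02 later, so values on either side of No Dox entered its mean.

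**Figure D5:**
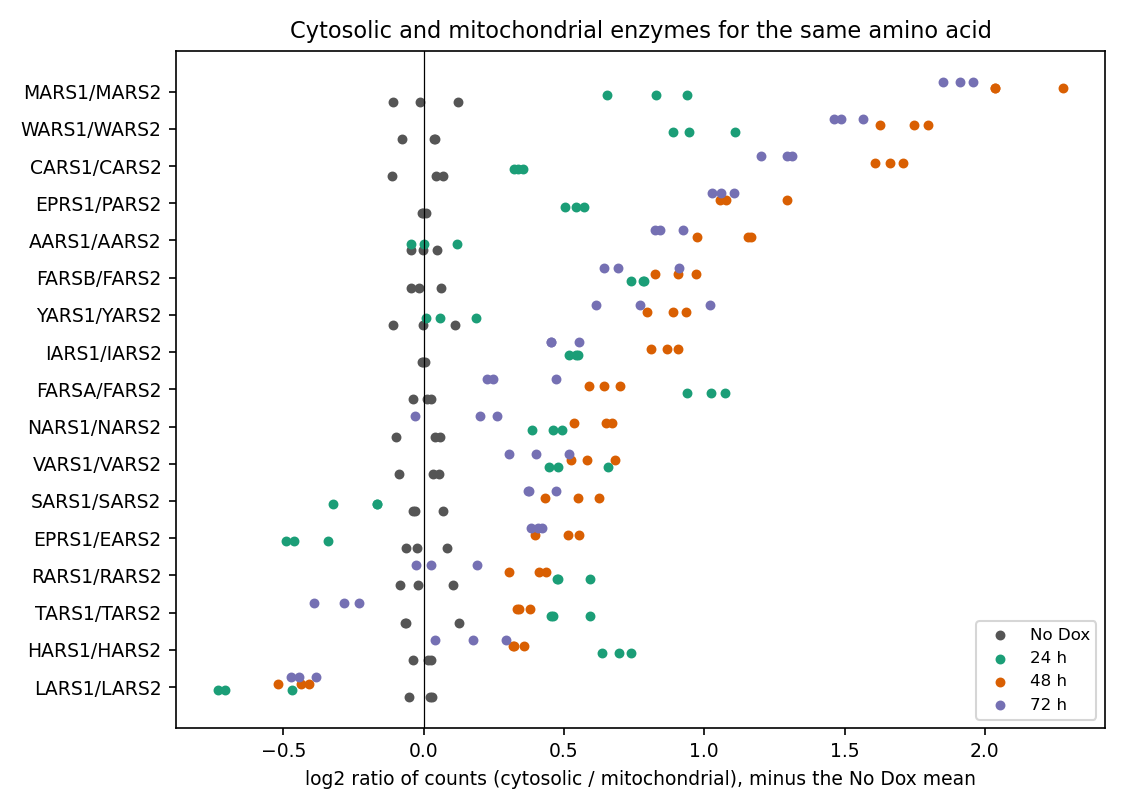
log2 ratio of cytosolic to mitochondrial counts minus the No Dox mean of that pair (x axis) in each library (points, coloured by group) for the 17 pairs, ordered by their 48 h mean. The points of MARS1/MARS2 at 48 and 72 h, WARS1/WARS2 at 48 h and CARS1/CARS2 at 48 h lie far to the right, those of LARS1/LARS2 in Dox all lie left of 0, and the 72 h points of TARS1/TARS2 and the 24 h points of SARS1/SARS2 and EPRS1/EARS2 do so too.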

How the data were processed

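MCF10A RNA was poly(A)-selected and sequenced as strand-marked, paired-end libraries. The authors used STAR, GRCh38 and GENCODE version 22, and their RSEM runs gave the deposited expected counts, the deposited TPM and the deposited effective length of each gene (another deposited column, FPKM, was not used). For STAR and RSEM, neither versions nor the strand setting of the counting could be stated from the sources at hand. RSEM divides a read that fits several genes among them.

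Expected counts were rounded and filtered with filterByExpr (14822 genes), scaled with TMM and fitted over all 12 libraries as group means with edgeR's quasi-likelihood test (edgeR 4.0.16, limma 3.58.1, R 4.3.3; biological coefficient of variation 5.71%). CPM uses TMM-scaled library sizes. DESeq2 1.42.0, other scalings, filters, fits and leave-one-out fits were alternatives. The test was tried on simulated data. Replicates of a group differed beyond sampling noise (chi-square per degree of freedom 2.56 to 8.6). Pair ratios used exact permutation tests written in Python 3.11.15 with numpy 2.4.6. The members and lists were chosen with earlier results of these data known, so no p adjusted over a list alone is given. Members are named in full, with values in each library for each member called against No Dox and for that of each set whose largest change was smallest. Partner genes of the complex and of mitochondrial translation are given by value, and other lists by up to 3 called genes with the largest change or the 2 most abundant. QARS1, LARS2, TARS2, EARS2, AARS2, MARS2 and CARS2 were shown in detail after their values were seen. Of 60483 rows, 56321 had a symbol in the name table. A marker of the leukocyte list is not reported here.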

Additional observations from a re-analysis of the deposited data

Results flagged for a closer look

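Between 24 and 48 h, 15 synthetase genes passed as higher and 8 as lower in the edgeR test of the difference between those times. Of all genes, 18.3% passed as higher and 18.3% as lower, so the count of lower genes was near the background. Given here are the gene past the 2-fold threshold in that step and the gene that passed on opposite sides of No Dox at the 2 times. CARS1 changed by 1.04 ± 0.05 on the log2 scale between 24 and 48 h, from 79.7 ± 3.43 to 164 ± 2.15 CPM, and was below the 2-fold threshold with effective lengths in DESeq2 (0.98). MARS2 changed by -0.64 ± 0.09 in the same step, from 30.4 ± 3.01 to 19.5 ± 2.2 CPM, and was above No Dox at 24 h (0.34) and below it at 48 h (-0.3). Both times share the same No Dox libraries, and this step was tested between the Dox groups themselves.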

How the results depend on the processing

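No synthetase change or pair ratio that passed turned its direction under any alternative run. Values near 0 that did not pass did change sign in some, such as HARS2 at 48 h (0.01, and -0.04 with upper-quartile scaling), and the mitochondrial median at 72 h, reported as 0.01, was -0.03 with upper-quartile scaling and -0.01 with library sizes only. Replicate numbers did not pair the samples (18 same-number pairs with correlations of -0.205 to 0.32, 3 over 0.1), and with a replicate block the called counts were 2, 8, 3, 1 and 0 cytosolic and 0 mitochondrial genes in the 5 comparisons, as without it. Without a fold threshold, 18, 19 and 19 cytosolic and 11, 11 and 8 mitochondrial genes passed at 24, 48 and 72 h, 14 and 9 from 24 to 48 h and 15 and 5 from 48 to 72 h. Of all genes, 37.1%, 36% and 34.3% then passed as higher and 38.1%, 35.8% and 34.8% as lower at the 3 times. Taken over both directions, the mitochondrial counts at these times were thus near or below the background. By direction, 9, 8 and 6 of the 16 were higher and 2, 3 and 2 lower. In the steps 18.3% and 18.6% of all genes passed as higher, and 18.3% and 20.1% as lower. DESeq2 with effective lengths called 1 mitochondrial gene at 24 h (EARS2) and 0 cytosolic genes from 24 to 48 h (CARS1 was at 0.98), and its cytosolic median at 48 h was 0.77. The test of the 2-fold threshold itself also called 0 cytosolic genes in that step. From TPM, the pair differences were 0.12 for NARS1/NARS2 (exact permutation p = 0.532), 0.3 for RARS1/RARS2 (exact permutation p = 0.0409), 0.22 for VARS1/VARS2 (exact permutation p = 0.05) and 0.45 for YARS1/YARS2 (exact permutation p = 0.159). The cause of these shifts was not tested. Leaving out 1 library in turn gave 1 to 2 cytosolic calls from 24 to 48 h, and pair differences of 0.6 to 0.75 for AARS1/AARS2, 0.35 to 0.44 for HARS1/HARS2, 0.35 to 0.46 for NARS1/NARS2, 0.28 to 0.37 for RARS1/RARS2 and 0.53 to 0.66 for YARS1/YARS2, the pairs that crossed the threshold of the exact permutation test in some of these runs. With 3 libraries a group, small changes of low genes such as PARS2, at 7.5 ± 0.164 CPM without Dox, were not resolved.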
